A study of Mus musculus with 8 samples.

Results

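The 10 genes described here belong to the m6A machinery: the writers Mettl3, Mettl14, Wtap, Virma, Zc3h13, Rbm15, Rbm15b and Cbll1 and the erasers Fto and Alkbh5, in single myeloid cells of mice with MC38 tumors. The members were named by their function and not by their values, though with earlier results of these data known, and they are 10 of the 32285 genes counted. MC38 is a mouse colon carcinoma line grown under the skin. CD45+CD11b+Ly6Chi cells were sorted from tumors or from blood, either without irradiation (control) or 3 days after 1 dose of 20 Gy ionizing radiation to the tumor (IR), and each of the 4 tissue and treatment pairs was 1 droplet library. Cells of wild-type mice (WT) and of Ythdf2-cKO mice, both with floxed Ythdf2 and only the latter with a Cre in the Lyz2 gene, which is active in myeloid cells, were stained with hashtag antibodies B0301 and B0302 and mixed, which gave 8 groups. Male and female mice 8 to 10 weeks old were used, and tumors of 5 mice were pooled per group.

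N6-methyladenosine, m6A, is the most common internal mark of messenger RNA. It is set in the nucleus by a complex whose catalytic core is a heterodimer of METTL3, which carries the methyltransferase activity, and METTL14, which holds the RNA. WTAP, VIRMA, ZC3H13, the RNA binding paralogs RBM15 and RBM15B, and the ubiquitin ligase-like CBLL1 (HAKAI) anchor that core to its targets, FTO and ALKBH5 are demethylases that remove the mark, and readers such as YTHDF2, which the cKO targets, pass marked RNA on to decay.

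With 1 pool and 1 library per group there were no replicates within a group, no test was made and no p-value is given. Every interval below is at the 95% level and covers counting error only. A level is the summed count of unique molecular identifiers (UMIs) of a gene per 1000000 gene UMIs of a group (CPM). These UMIs tag the 3′ end of a transcript once, so CPM is not divided by gene length. A comparison of groups is the log2 ratio of CPM after 1 UMI was added, scaled to depth, and a gene is called past the limit where this ratio is at least 1.5-fold and the pair of groups holds at least 100 UMIs of the gene. The groups held 2145 to 4570 cells and 18874439 to 24789369 gene UMIs, with a median of 2878 to 3226 UMIs per cell in blood and 5995 to 8550 in tumors. Of 170438626 gene UMIs in 27298 kept cells, 47977 belonged to the 10 members.

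Some facts of the libraries touch the results. Among barcodes with at least 500 UMIs, 7327 of 13144 in the tumor control library and 4958 of 12927 in the tumor IR library had under 20 hashtag UMIs, and 7325 and 4955 of these, respectively, carried hashtags in the other tumor library. They were left out, and the kept cells of any 2 libraries shared 7 to 32 barcodes. Ythdf2 was counted at 301.8, 343, 372 and 339 CPM in the groups labelled cKO (blood without and with IR, then tumor without and with IR) and at 33.1, 35.9, 55.8 and 50.6 CPM in those labelled WT, which goes against the label. The tags lie at the 3′ end, where they check a deletion only if that part was removed. Lyz2, which holds the Cre, ran the other way at 83.2 to 138 CPM under the cKO label and 5597 to 14182 under the WT label. WT and cKO below therefore name the hashtag label. The sort was not pure by its transcripts. Blood groups were 66.4% to 70.6% neutrophil-like cells, of which 19.9% had a UMI of Ly6c2, and 492 tumor cells were fibroblast-like, of which 9.35% had a UMI of Ptprc, the gene of CD45.

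Mettl3 and Alkbh5 are 2 of the 6 members with 1 direction in all 4 comparisons of tumor with blood given below, and their promoter windows are shown as 1 member lower and 1 member higher in tumor. RefSeq promoters (GRCm38.p6) were matched for 8 of 10 members, and Mettl14 and Virma had no entry in the table. The bases before the start site are printed 5′ to 3′ along the gene's strand, without those that an annotated exon holds. Capitals mark GGGCGG, the GC box, and CCAAT, the CCAAT box, sought on both strands together with ACGTG and TATAAA, and no marked sites overlap. Mettl3 is on the minus strand of chromosome 14, at chr14:52294841-52305128 (mm10), and its window is chr14:52305129-52305374. The Alkbh5 window is chr11:60537433-60537682 on the plus strand, inside the annotated gene span (chr11:60536381-60558512) but outside its exons.
Mettl3: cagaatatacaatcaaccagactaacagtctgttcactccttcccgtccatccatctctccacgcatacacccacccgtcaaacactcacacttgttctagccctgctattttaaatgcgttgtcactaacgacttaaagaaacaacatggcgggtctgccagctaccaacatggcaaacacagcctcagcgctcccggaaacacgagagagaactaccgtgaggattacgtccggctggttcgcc
Alkbh5: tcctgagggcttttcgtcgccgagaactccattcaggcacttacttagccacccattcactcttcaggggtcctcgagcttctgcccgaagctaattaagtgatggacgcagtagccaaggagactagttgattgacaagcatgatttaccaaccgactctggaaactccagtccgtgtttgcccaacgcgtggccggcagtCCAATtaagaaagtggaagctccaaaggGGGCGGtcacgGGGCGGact
The Alkbh5 window held 2 GC boxes and 1 CCAAT box, and the Mettl3 window held none of the 4 motifs. GGGCGG was in the windows of 5 of the 8 matched members (Wtap, Zc3h13, Rbm15b, Cbll1 and Alkbh5) and in 32.7% of all 32851 windows, and CCAAT was in those of 3 members (Wtap, Rbm15 and Alkbh5) and in 33.8% of all. ACGTG was found for Rbm15 and Rbm15b, against 16.6% of all windows, and TATAAA for no member, against 12.4%. A member is counted where any of its windows holds the motif, and Wtap had 3 windows and Zc3h13 had 2, while the shares are of single windows. These are matches of letters in a window and not shown to be sites.

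All 10 members were detected in every group, at levels that spanned about an order of magnitude. Zc3h13 (mean of the 8 groups 62.2 CPM), Alkbh5 (61.0) and Wtap (55.4) were the most abundant by count. Virma (24.9) and Cbll1 (23.3) followed. Fto (15.3), Rbm15 (12.8), Rbm15b (9.74), Mettl3 (9.53) and Mettl14 (6.96) were the lowest, so the 2 subunits of the catalytic core were the least counted by this mean. In blood alone, Mettl3 (mean 11.9 CPM) was above Rbm15 (10.52) and Rbm15b (8.65). Several neighbours in this order lay within their SD over the 8 groups, which holds the difference between tissues. In blood, Zc3h13 (mean 61.4 CPM, SD 2.62) was above Alkbh5 (47.3, SD 2.62). By the means in tumors it was below Alkbh5, at 63.0 (SD 7.20) against 74.6 (SD 4.11). The SD over the 8 groups was 5.09 CPM for Zc3h13 and 14.9 for Alkbh5, 3.76 for Virma and 4.02 for Cbll1, and 2.08 for Rbm15b and 2.66 for Mettl3. Since the tags are not scaled by length or by how well a 3′ end primes, the order is one of counts.

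**Figure D1:**
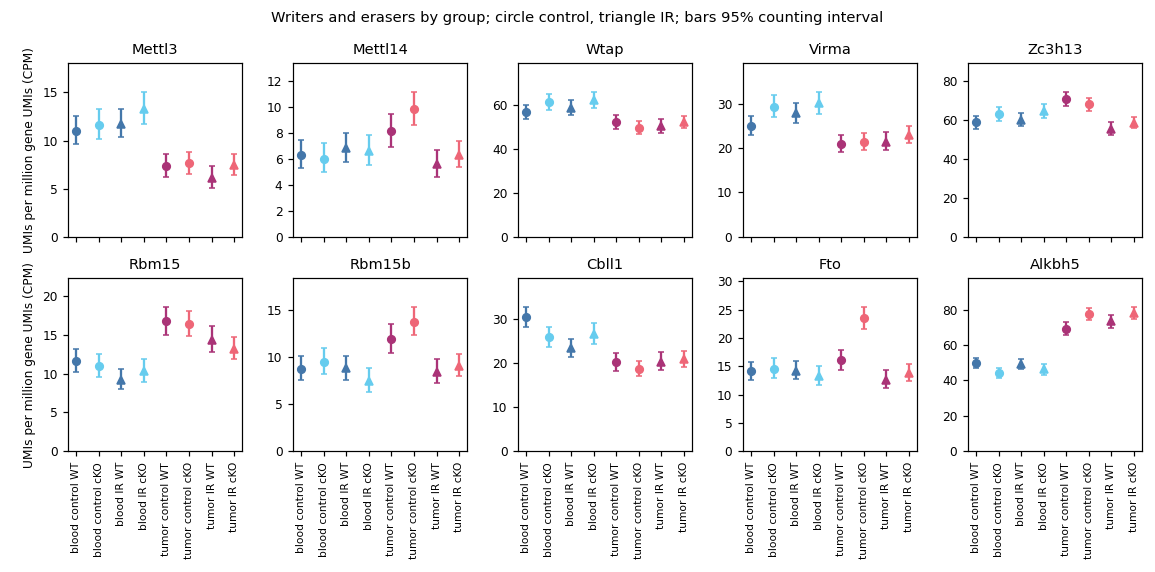
Level of each member (CPM, y axis, from 0) in the 8 groups (x axis), with 95% counting intervals. Circles are control and triangles IR groups, blue is blood, red is tumor, and the lighter shade is the cKO label. The 4 tumor groups lie below the 4 blood groups for Mettl3, Wtap, Virma and Cbll1 and above them for Rbm15 and Alkbh5.

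Among writers, Mettl3 had 11.0 and 11.6 CPM in the untreated blood groups (WT, cKO) and 11.7 and 13.3 in those after IR. The untreated tumor groups had 7.36 and 7.64 CPM of it, and those after IR 6.14 and 7.46. Each tumor group was below each blood group. Mettl14, its partner, did not follow it, with 6.31 and 6.01 CPM in untreated blood and 6.83 and 6.62 in blood after IR, against 8.15 and 9.84 in untreated tumors and 5.59 and 6.33 in tumors after IR. There the tissues overlapped and the untreated tumors were highest. Rbm15, which binds RNA and recruits the core, was at 9.18 to 11.6 CPM in blood and 13.2 to 16.7 in tumors without overlap, while its paralog Rbm15b was at 7.47 to 9.51 and 8.47 to 13.8 and overlapped. Wtap, the adaptor of the core, was at 56.7 to 62.2 CPM in blood and 49.6 to 52.2 in tumors, Virma, the scaffold, at 25.1 to 30.0 and 20.9 to 23.0, and Cbll1 at 23.4 to 30.4 and 18.7 to 20.9. Zc3h13, which helps hold the complex in the nucleus, overlapped, at 58.6 to 64.4 CPM in blood and 55.4 to 70.4 in tumors.

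For the erasers, Alkbh5 had 49.8 and 44.2 CPM in untreated blood (WT, cKO) and 49.1 and 46.3 in blood after IR, against 69.3 and 77.5 in untreated tumors and 73.3 and 78.1 in tumors after IR. The tissues did not overlap. Fto had 14.1 and 14.6 CPM in untreated blood, 14.2 and 13.4 in blood after IR, 16.1 and 23.5 in untreated tumors, and 12.6 and 13.8 in tumors after IR. The group tumor control cKO stood above the other 7. The genes sit at separate loci (mm10): Fto at chr8:91313525-91668439 and Alkbh5 at chr11:60536381-60558512, both on the plus strand. The gene span of Rbm15b (chr9:106880918-106887428, minus strand) overlaps that of Manf on the same strand, which makes its counts less certain. The span of Fto holds 4 gene models on the same strand that were not among the features counted. Mettl3 overlaps Tox4 on the opposite strand, and its counts rest on the strand of the 3′ tags.

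Shares of cells with a UMI were low and followed the levels. After each cell was thinned to 1000 UMIs, which 26807 of 27298 cells held, 4.47% to 7.88% of the cells of a group had a UMI of Alkbh5, 4.69% to 5.70% of Wtap, 0.60% to 1.12% of Mettl3 and 0.42% to 1.14% of Mettl14. Unthinned, these shares were 18.5% to 47.0%, 20.4% to 36.4%, 3.80% to 7.18% and 2.63% to 9.09%. No cell class is known to lack these genes, so a background share could not be read from one. The RNA of barcodes below the cells in each library held the members at levels like those in cells, for example Alkbh5 at 46.1 to 73.6 CPM, Mettl3 at 3.78 to 12.6 and Mettl14 at 4.46 to 10.1, on 3 to 91 UMIs.

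The comparison of hashtag labels asks whether the members differ between cells with the cKO label and cells with the WT label. No member was past 1.5-fold between cKO and WT in any of the 4 libraries, while of the genes tested 6.27% were past it in the untreated blood library, 2.65% in blood after IR, 18% in untreated tumors and 4.85% in tumors after IR. All 10 members had the 100 UMIs in each comparison, and their log2 ratios ran from -0.24 to 0.54. Mettl3 (0.07, 0.18, 0.05 and 0.28 in that order) and Virma (0.23, 0.11, 0.03 and 0.10) were above 0 in all 4, a pattern held by 19.9% of genes. With TMM factors, a scaling that trims extreme genes, neither kept it (Mettl3 -0.01 and Virma -0.04 in tumor control). The largest difference was Fto in tumor control, with a log2 ratio of 0.54 (0.34 to 0.75). After IR it was 0.13 (-0.11 to 0.37) there, and in blood 0.05 (-0.19 to 0.29) and -0.09 (-0.33 to 0.15). Once the fibroblast-like cells were left out, Fto in the irradiated tumors was at 0.35 (0.07 to 0.63), so its difference was not confined to untreated tumors. Where the interval holds 0, the limits given are the differences the counts allow.

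**Figure D2:**
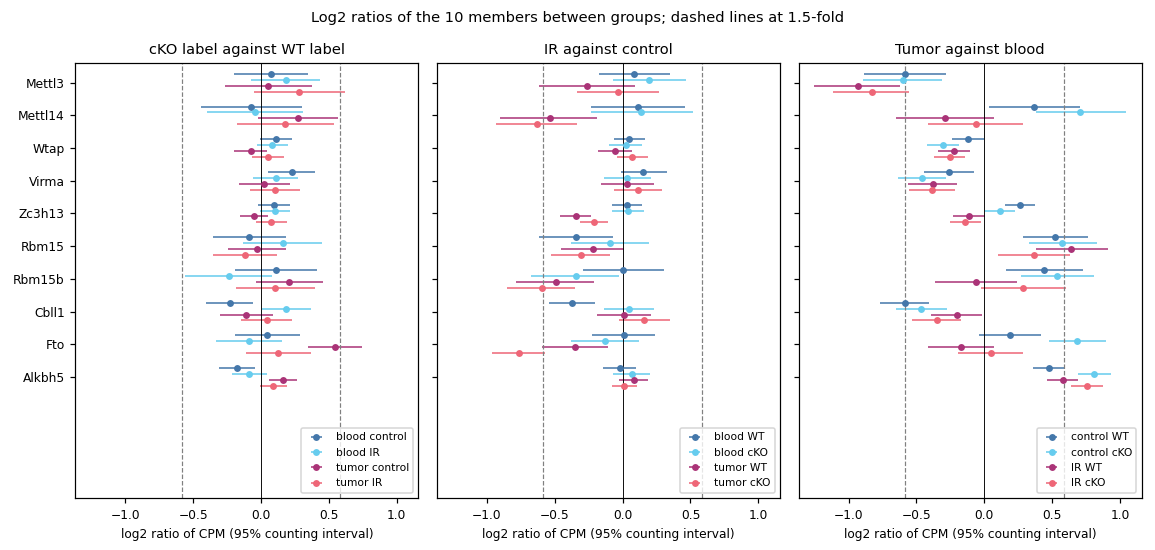
Log2 ratios of CPM (x axis) of the 10 members (y axis) for cKO against WT (left), IR against control (middle) and tumor against blood (right), 4 comparisons each, with 95% counting intervals and dashed lines at 1.5-fold. No point passes the lines on the left, 3 members pass in the middle panel, all in tumor cKO, and Mettl3 and Alkbh5 lie on opposite sides of 0 on the right.

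IR against control asks which genes differ 3 days after the tumor dose. In blood, none of the 10 members was past 1.5-fold under either label, beside 4.74% (WT) and 5.49% (cKO) of genes. The lowest ratios there were Cbll1 in WT at -0.37 (-0.54 to -0.21), against 0.05 (-0.14 to 0.23) in cKO, and Rbm15b in cKO at -0.35 (-0.68 to -0.02), against 0.01 (-0.29 to 0.30) in WT. In tumors of the WT label none was past the limit, beside 18.6% of genes, and in those of the cKO label 3 of 10 were lower, beside 41.7% of genes past it in either direction. The 3 were Fto at -0.76 (-0.97 to -0.57), Mettl14 at -0.63 (-0.94 to -0.34) and Rbm15b at -0.60 (-0.85 to -0.35). The same genes under the WT label were at -0.35 (-0.59 to -0.11), -0.54 (-0.90 to -0.19) and -0.49 (-0.79 to -0.21), so each was on the same side of 0 in both. Both labels came from the same pair of libraries, so these are not separate observations, and IR cannot be told apart from the library. Where the WT label also needed a hashtag margin of 4 times, the 3 genes were at -0.25 (-0.56 to 0.06), -0.63 (-1.06 to -0.20) and -0.22 (-0.60 to 0.16) under it. Alkbh5 was at 0.08 and 0.01, Wtap at -0.05 and 0.07, and Virma at 0.03 and 0.11 (WT, cKO), all with intervals that hold 0. Virma and Rbm15 had 1 direction in all 4 IR comparisons, as had 24.1% of genes. The median over the members was -0.24 in tumor WT and -0.12 in tumor cKO, beside -0.13 and -0.18 over all genes tested. TMM factors moved the median of all genes by -0.16 to 0.21 over the 12 comparisons. With them none of the 10 members passed the limit in tumor cKO, and Fto was at -0.55, Mettl14 at -0.42 and Rbm15b at -0.39. On that scale Alkbh5 was at 0.23 and 0.22 in tumors (WT, cKO), with intervals above 0, and Virma at -0.03 in blood cKO, so that it no longer had 1 direction.

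The tumor groups differed in their fibroblast-like cells. These were 11.7% of cells in tumor control cKO, 4.53% in tumor control WT, 2.61% in tumor IR WT and 1.22% in tumor IR cKO, and gave 30.4%, 16.5%, 9.95% and 5.21% of the group's UMIs, since such a cell held a median of 26132. All 8 fibroblast markers were detected in both control groups and all but Lum in both IR groups, and their summed level was 1230, 726, 441 and 211 CPM in the same order, against at most 0.941 CPM in blood. Detection was uneven, with Sparc in 95.1% of the fibroblast-like cells, Pdgfra in 21.1% and Lum in 0.407%. Of 6 carcinoma markers, Epcam, Krt8 and Krt18 were at 0 in these cells, and Krt19, Cdh1 and Krt7 had 10, 16 and 1 UMIs. Whether some of these cells were carcinoma cells was not tested. Fto was at 39.5 to 42.8 CPM in the fibroblast-like cells of the 3 groups with at least 50 of them and at 9.38 to 16.04 in macrophage-like cells. Without the fibroblast-like cells, an alternative added after the data had been seen, the IR log2 ratio in tumor cKO was -0.33 for Fto (-0.58 to -0.08), -0.24 for Rbm15b (-0.54 to 0.07) and -0.62 for Mettl14 (-0.96 to -0.29), so that only Mettl14 stayed past the limit, and Mettl14 passed it in tumor WT too (-0.66). Under the WT label the IR ratio was then -0.29 (-0.59 to 0.02) for Fto and -0.54 (-0.89 to -0.21) for Rbm15b. From the same cells, the Fto ratio of cKO against WT was 0.39 (0.11 to 0.67) without irradiation, and after it 0.35 (0.07 to 0.63). The neutrophil markers differed with IR as well, at 231 and 262 CPM in untreated tumors and 1736 and 1161 in tumors after IR (WT, cKO). Cells of unnamed clusters numbered 17 and 30 in untreated tumors and 326 and 247 after IR, and their part in the IR ratios was not tested. The main unnamed tumor cluster, of 612 cells, came closest to the neutrophil list, with 5 of 11 markers raised. It went unnamed for its low UMI count and because no marker was among its leading genes.

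**Figure D3:**
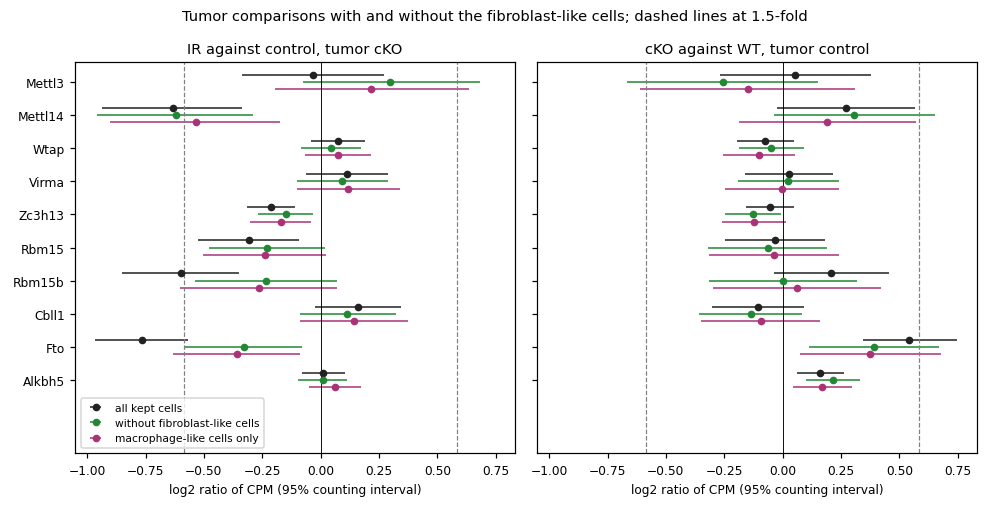
Log2 ratios of CPM (x axis, 95% counting intervals) of the 10 members (y axis) for IR against control in tumor cKO (left) and cKO against WT in tumor control (right), from all kept cells, without fibroblast-like cells, and from macrophage-like cells alone. Fto on the left moves from -0.76 to -0.33 and -0.36, and Mettl14 stays between -0.63 and -0.53.

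Macrophage-like cells, 65.6% to 72.6% of the tumor cells, were compared alone as well. No member of 10 was past 1.5-fold in them, beside 11.3% of genes for cKO against WT in tumor control, 1.66% in tumor IR, 16.5% for IR against control in WT and 28.7% in cKO. Fto was at 12.4 CPM in tumor control WT, 16.04 in tumor control cKO, 9.38 in tumor IR WT and 12.5 in tumor IR cKO. In these cells both IR groups lay below the control of their label, and both cKO groups above their WT. The Fto log2 ratio of cKO against WT was 0.37 (0.07 to 0.68) for the controls, beside 0.41 (0.09 to 0.74) for the irradiated pair. Mettl14 was at 8.46 and 9.65 CPM in the controls (WT, cKO) and 5.93 and 6.65 after IR, with no overlap between treatments. Alkbh5 was at 73.1 and 82.2 CPM in the controls and 77.6 and 85.9 after IR, both cKO groups above both WT groups.

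Tumor against blood gave the largest differences of the members. Past 1.5-fold were 1 of 10 members in control WT (Cbll1, lower), 4 in control cKO (Mettl14, Fto and Alkbh5 higher, Mettl3 lower), and 2 in IR WT (Rbm15 higher, Mettl3 lower) and in IR cKO (Alkbh5 higher, Mettl3 lower), beside 56.2%, 63.4%, 51.7% and 51.4% of genes. In each comparison the share of the 10 members past the limit was below that of all genes. In all, 6 members, Mettl3, Wtap, Virma and Cbll1 lower and Rbm15 and Alkbh5 higher in tumor, had 1 direction in all 4 comparisons, as had 72.4% of genes, and with TMM factors the 6 had the same directions. No member was past 1.5-fold in all 4, as 35.3% of genes were. Mettl3 had log2 ratios of -0.58 (-0.89 to -0.28), -0.60 (-0.89 to -0.31), -0.93 (-1.25 to -0.62) and -0.83 (-1.12 to -0.55) in control WT, control cKO, IR WT and IR cKO. Alkbh5 had 0.48 (0.36 to 0.59), 0.81 (0.69 to 0.93), 0.58 (0.46 to 0.69) and 0.76 (0.64 to 0.87). Both kept their direction in all 4 comparisons without the neutrophil-like cells, Mettl3 at -0.87, -1.01, -1.27 and -1.03 and Alkbh5 at 0.47, 0.68, 0.47 and 0.66. Rbm15 lost most of its difference there, at 0.04, 0.05, 0.15 and 0.03. Leaving those cells out also moved the median of all genes, by -0.27 to -0.21 over the 4 comparisons, so such changes are not particular to the members. Without the neutrophil-like cells, Mettl14 at -0.74, Virma at -0.66 and Fto at -0.67 newly passed the limit in IR WT. So did Virma at -0.63 in IR cKO and Mettl3 in control WT, all lower in tumor. In control cKO, Mettl14 at 0.26 (-0.09 to 0.62) and Fto at 0.17 (-0.05 to 0.39) were then no longer past the limit. Newly past it in control cKO were Wtap at -0.63, Virma at -0.73 and Cbll1 at -0.78, again lower in tumor. Without the fibroblast-like cells, which gave 30.4% of that tumor group's UMIs, Fto was at 0.04 (-0.21 to 0.30) and Mettl14 at 0.67. The call in control WT was close to the limit: with HTODemux labels Cbll1 was at -0.57 and Mettl3 at -0.65, and without doublet removal they were at -0.57 and -0.62, so that Mettl3 and not Cbll1 passed it. Neutrophil-like cells gave 35.7% to 39.1% of the blood UMIs and at most 0.0303% of the tumor UMIs, and the summed level of the 11 neutrophil markers was 68942 to 105601 CPM in blood and 231 to 1736 in tumors, with Camp at 0 in all 4 tumor groups and Ngp in 2. The unnamed tumor cluster closest to the neutrophil list is not among these cells and was kept in the comparisons without them. Unnamed cells gave at most 3.34% of the UMIs of a tumor group, in IR WT.

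In ratios within the machinery, Mettl3 per Mettl14 was 1.75 (1.41 to 2.18) and 1.93 (1.53 to 2.44) in untreated blood (WT, cKO) and 1.72 (1.40 to 2.11) and 2.01 (1.61 to 2.51) in blood after IR. It was 0.903 (0.719 to 1.13) and 0.777 (0.636 to 0.947) in untreated tumors and 1.10 (0.844 to 1.43) and 1.18 (0.947 to 1.47) in tumors after IR. The blood groups lay above the tumor groups without overlap. By class, with groups summed, the ratio was 3.38 (2.56 to 4.54) in neutrophil-like, 1.66 (1.44 to 1.92) in monocyte-like and 1.60 (1.22 to 2.11) in nonclassical monocyte-like cells of blood. In tumors it was 0.829 (0.720 to 0.954) in macrophage-like, 1.08 (0.843 to 1.37) in fibroblast-like, 1.22 (0.770 to 1.93) in monocyte-like and 1.71 (0.974 to 3.09) in dendritic cell-like cells, the last 3 with intervals that hold 1. The 8 writer members summed to 206 to 221 CPM in blood and 182 to 208 in tumors. The 2 erasers summed to 58.7 to 63.9 CPM in blood and 85.4 to 101 in tumors, mostly Alkbh5, which outnumbered Fto 3.03 to 5.81 times. Writer UMIs per eraser UMI were thus 3.26 to 3.71 in blood and 2.03 to 2.43 in tumors. By class in blood, this ratio was 2.85 (2.69 to 3.03) in neutrophil-like, 3.51 (3.36 to 3.67) in monocyte-like and 4.19 (3.84 to 4.57) in nonclassical monocyte-like cells. In tumors it was 3.49 (3.16 to 3.87) in monocyte-like, 3.08 (2.69 to 3.54) in dendritic cell-like, 2.05 (1.98 to 2.12) in macrophage-like and 1.80 (1.69 to 1.92) in fibroblast-like cells. NK cell-like cells had 4.44 (3.63 to 5.47) in blood and 5.05 (3.86 to 6.67) in tumors.

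**Figure D4:**
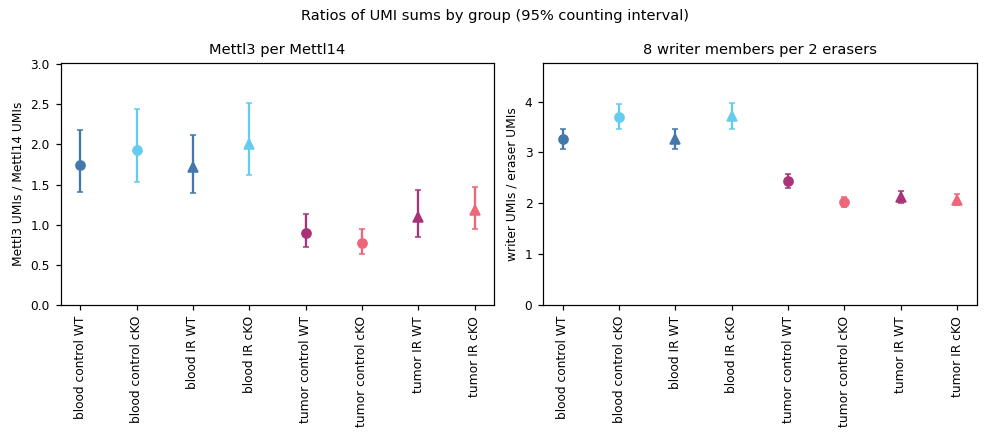
Mettl3 UMIs per Mettl14 UMI (left) and UMIs of the 8 writer members per UMI of the 2 erasers (right) in the 8 groups (x axis), with 95% counting intervals. The blood groups lie at 1.72 to 2.01 on the left and 3.26 to 3.71 on the right, above all tumor groups in both.

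Cell classes were then compared within groups. None of the members was among the 2000 variable genes, and all were kept out of the clustering. A name ending in -like comes from marker genes, and 21 of 23 clusters were named. In blood, 7 of the 9 members with enough UMIs were past 1.5-fold higher in monocyte-like than in neutrophil-like cells in all 4 groups, beside 64.5% of genes past it the same way in every group in either direction. Fto was at 19.1 and 21.96 CPM in monocyte-like cells of blood control (WT, cKO) and 21.0 and 18.4 after IR, and at 5.21, 4.68, 4.33 and 3.11 in neutrophil-like cells, a log2 ratio of 1.85 to 2.52. Rbm15b was at 1.67 to 2.15 and Rbm15 at 1.19 to 2.09. Mettl3 (0.65 to 1.42), Virma (0.87 to 0.92), Wtap (0.62 to 1.09) and Zc3h13 (0.64 to 1.01) differed less. Mettl14 had too few UMIs in 1 or more groups for the call and was at 7.13 to 9.45 CPM in monocyte-like and 1.33 to 2.65 in neutrophil-like cells, a log2 ratio of 1.44 to 2.72. The exceptions were Cbll1 (0.34 to 0.91) and Alkbh5 (0.16 to 0.41), whose levels in neutrophil-like cells, 16.1 to 23.5 and 37.7 to 49.5 CPM, were closest to those in monocyte-like cells. The neutrophil-like cells were also the shallower, with a cluster median of 2387 to 8420 UMIs against 11168 in the main blood monocyte-like cluster. The part of depth in the difference was not tested. Nonclassical against classical monocyte-like cells gave 0 of 9 members past the limit in all groups, beside 7.19% of genes, with log2 ratios of -0.49 to 0.51.

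**Figure D5:**
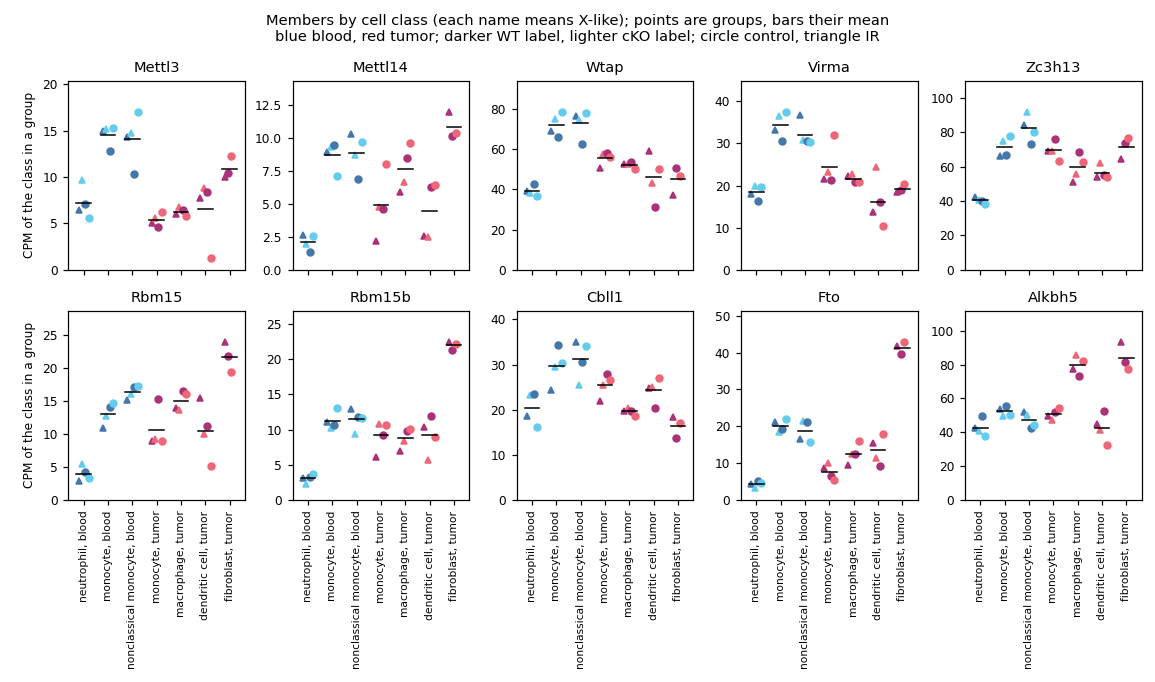
CPM (y axis, from 0) of the 10 members in 7 cell class and tissue pairs (x axis), 1 point per group with at least 50 cells of the class and a bar at their mean. Fto and Rbm15b are highest in fibroblast-like cells and lowest in neutrophil-like cells, and Alkbh5 is highest in fibroblast-like and macrophage-like cells.

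Monocyte-like cells were present in both tissues, as clusters 3 and 19 in blood and mostly cluster 5, led by Cxcl10, in tumors. Between the tissues, 2 of 9 members were past 1.5-fold in all 4 pairs, beside 27.4% of genes, both lower in tumor. Mettl3 was at 12.8, 15.3, 14.9 and 15.2 CPM in blood (control WT, control cKO, IR WT, IR cKO) and at 4.64, 6.22, 5.04 and 5.58 in tumors, on 7 to 14 UMIs there, and the log2 ratios of -1.54 to -1.26 all had intervals below 0. Fto was at 19.1, 21.96, 21.0 and 18.4 CPM in blood and at 6.50, 5.34, 8.64 and 9.97 in tumors, with ratios of -1.99 to -0.87, also all with intervals below 0. Alkbh5, in contrast to its difference over all cells, was at 49.7 to 55.2 CPM in blood and 47.4 to 54.2 in tumor monocyte-like cells, with ratios of -0.13 to 0.11 whose intervals all hold 0. The median over all genes tested in these cells was itself below 0, at -0.30, -0.37, -0.36 and -0.36 in the same order of pairs. Each Alkbh5 ratio lay above that median, and each Mettl3 and Fto ratio below it. Tumor monocyte-like cells held fewer UMIs, with a median of 6210 in cluster 5 against 11168 in cluster 3. The part of depth here was not tested.

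Within tumors, macrophage-like against monocyte-like cells gave 0 of 8 members past the limit in all 4 groups, beside 14.3% of genes. Alkbh5 came nearest, with 73.1 to 85.9 CPM in macrophage-like cells, no overlap, and log2 ratios of 0.49 to 0.85. Dendritic cell-like against macrophage-like cells also gave 0 of 8, beside 18.1% of genes, and Alkbh5 was lower in dendritic cell-like cells, at 32.2 to 52.4 CPM with ratios of -1.35 to -0.48. Fibroblast-like against macrophage-like cells, in the 3 groups with enough cells, gave 3 of 10 members past the limit, all higher, beside 51.6% of genes. These were Fto (1.41 to 2.14), Rbm15b (1.12 to 1.66; 21.3 to 22.4 CPM against 6.98 to 10.1) and Mettl3 (0.69 to 1.06; 9.96 to 12.2 CPM against 5.82 to 6.76). The macrophage-like name included a cluster of 1159 cells with a median of 1392 UMIs and 4.41% mitochondrial UMIs, and without it the counts of members past the limit against monocyte-like, dendritic cell-like and fibroblast-like cells were 0 of 8, 0 of 7 and 2 of 8.

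Across 30 sums of a class in a group with at least 100 cells, Rbm15 and Rbm15b were the most alike pair of members (Pearson r = 0.87 of log2(CPM + 1)), followed by Zc3h13 with Rbm15b (0.84) and Rbm15b with Fto (0.83), and Mettl3 was most like Virma (0.82) and had r = 0.51 with Mettl14. Alkbh5 was least like the others, from -0.31 with Cbll1 to 0.54 with Rbm15. Among 6904 genes with at least 2000 UMIs, the nearest to each member was Gle1 for Mettl3 (0.91), Mis12 for Mettl14 (0.89), Tgfbrap1 for Wtap (0.90), Ldb1 for Virma (0.90), Prpf4b for Zc3h13 (0.93), Hsph1 for Rbm15 (0.93), Ankrd10 for Rbm15b (0.94), Rpp21 for Cbll1 (0.91), Mrps35 for Fto (0.94) and Lamc1 for Alkbh5 (0.78). The sums share libraries, and classes differ in depth, so these are descriptions.

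Of 19 other m6A genes (other methyltransferases, readers, and enzymes of the methyl donor), 15 to 19 had enough UMIs in a comparison. Between the labels, Ythdf2 was higher under cKO in all 4 libraries, as given above, Igf2bp1 was higher in tumor control (5.87 against 2.27 CPM) and Igf2bp2 lower in tumor IR (6.41 against 10.4 CPM). Of all genes, 6.27% (blood control), 2.65% (blood IR), 18% (tumor control) and 4.85% (tumor IR) were past the limit between the labels. IR in blood gave 1 gene of 16 under the WT label (Igf2bp3, 3.26 against 1.87 CPM) and none of 16 under cKO, beside 4.74% and 5.49% of all genes. In tumors, IR gave 2 lower genes of 17 under WT (Mettl16 and Igf2bp3) and 6 of 19 under cKO (Mettl16, Trmt112, Igf2bp1, Igf2bp2, Igf2bp3 and Ahcy), with none higher, beside 18.6% and 41.7% of all genes past the limit in either direction. Fibroblast-like cells gave 16.5% of UMIs before and 9.95% after IR under WT and 30.4% and 5.21% under cKO, and their part in these counts was not tested. Mettl16, which methylates the U6 RNA, was at 20.4 and 25.5 CPM in untreated tumors and 12.4 and 11.6 after IR (WT, cKO). Tumor against blood gave 4, 6, 1 and 1 higher genes in control WT, control cKO, IR WT and IR cKO, Igf2bp2 in each, of 17, 19, 17 and 17 tested. There was 1 lower gene in each, Mat2b, a regulatory subunit of S-adenosylmethionine synthesis, at 41.7 to 44.5 CPM in tumors and 74.3 to 83.5 in blood. Of all genes, 56.2%, 63.4%, 51.7% and 51.4% were past the limit in either direction, larger shares than among these genes.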

How the data were processed

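The 4 droplet libraries (10x Genomics 3′ v3.1) were deposited as raw counts. The authors used Cell Ranger 6.0.1 (the file headers name version 4) with mm10 and GENCODE vM23 and deposited counts of UMIs per feature for every barcode, without normalization. Cells were called from them by an order-of-magnitude threshold and a test against ambient RNA (Benjamini-Hochberg level of 0.01), and barcodes with under 200 genes or over 25% mitochondrial UMIs were removed. Barcodes with at least 20 hashtag UMIs were labelled WT where B0301 was at least B0302 and cKO where B0302 was at least 4 times B0301, and the 6% with the highest Scrublet scores (scanpy 1.11.5) were removed per library. Clusters came from Seurat 5.3.0 (resolution 0.8, 40 components) without the members, Ythdf2, Lyz1 and Lyz2. Markers counted as raised in a cluster at 25% of cells and 2 times the median CPM over clusters (with 5 added), limits set after the data had been seen. Intervals are exact Poisson for CPM, exact conditional binomial for ratios and Clopper-Pearson for shares. Ratios and intervals were tested on simulated counts that held counting error only, so the simulation says nothing of variation between pools or libraries. Positions are from GENCODE vM21 (mm10), another release than that of the counts. Named are all 10 members, other m6A genes past 1.5-fold, the nearest gene by r, and genes that check labels and sort. Alternatives were another set of cells, HTODemux or a margin of 4 times for hashtags, no doublet removal, 10% mitochondrial UMIs, TMM factors (edgeR 4.0.16), single classes, 20 UMIs, 2-fold and resolutions 0.4 and 1.2. The members and lists were chosen with earlier results of these data known.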

Additional observations from a re-analysis of the deposited data

Results flagged for a closer look

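In these results the ratio of 1 member had opposite directions in comparisons of the same kind, with both 95% counting intervals clear of 0. None of these differences was tested, since each group was 1 pool. Zc3h13 in tumor against blood had a log2 ratio of 0.26 in control WT and 0.11 in control cKO, and of -0.14 in IR cKO, and with TMM factors the control cKO value was -0.04. Without the neutrophil-like cells it was at 0.0027 in control WT, -0.20 in control cKO, -0.34 in IR WT and -0.41 in IR cKO, so that the opposite directions were not kept. The median of all genes moved by -0.27 to -0.21 there. Cbll1 in cKO against WT was at -0.23 in untreated blood and at 0.19 after IR, the latter 0.14 (-0.04 to 0.32) with TMM factors. Alkbh5 in cKO against WT was at -0.17 in blood control and 0.16 in tumor control, where TMM factors gave 0.096 (-0.0052 to 0.20), so that both of these intervals held 0 on that scale.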

How the results depend on the processing

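No paired analysis was possible because the results come from no test and the groups share fewer than 2 replicate numbers; WT and cKO shared each library, and their ratios were taken within it. The 120 log2 ratios of the members stayed within their main interval, with no called value changing sign, with every barcode of at least 500 UMIs, without doublet removal and with at most 10% mitochondrial UMIs, as did 119 with HTODemux, 117 with the margin rule and 105 with TMM factors. Other sets of cells moved more of them past it: 33 moved and 7 stayed without neutrophil-like cells, 20 and 20 in neutrophil-like cells, 8 and 72 without fibroblast-like cells, 27 and 41 in macrophage-like cells, with 2 more changing sign, and 56 and 59 in monocyte-like cells, with 5 more changing sign. Counts of members that moved by over 1.5 times follow, and the cause was not tested. Members with 1 direction in all 4 IR comparisons were 4 from 500 UMIs or without doublet removal and 1 of 3 in monocyte-like cells, and for cKO against WT 1 with the margin rule, 0 with TMM factors and 0 of 3 in monocyte-like cells. For IR in tumor WT, 1 member passed 1.5-fold with HTODemux, with the margin rule and without fibroblast-like cells. For IR in tumor cKO it was 0 with TMM factors, in macrophage-like cells and in monocyte-like cells (3 tested), and 1 without fibroblast-like cells. Of all genes, 28.7% passed in macrophage-like and 11.1% in monocyte-like cells. For IR in blood cKO it was 1 of 6 in neutrophil-like cells, beside 10.7% of genes. For tumor against blood in control WT it was 2 with the margin rule, 10% mitochondrial UMIs, TMM factors, without neutrophil-like cells or in monocyte-like cells, and 5 of 9 in macrophage-like cells, of which blood held 60. Of all genes, 45.0% passed in monocyte-like and 74.1% in macrophage-like cells. The tumor against blood count was 4 in IR WT without neutrophil-like cells or in monocyte-like cells, and 4 in IR cKO in the latter. In monocyte-like cells 48.8% (IR WT) and 47.4% (IR cKO) of all genes passed. At a 2-fold limit, IR in tumor cKO and all 4 tissue comparisons had 0. At resolution 0.4, where nonclassical monocytes had no cluster of their own, Alkbh5 alone passed in macrophage-like against monocyte-like (1 of 3 tested) and dendritic cell-like against macrophage-like cells (1 of 2), and 0 of 3 in fibroblast-like against macrophage-like cells. Called ratios that changed sign were, for tumor against blood, Mettl14 at -0.41 and Fto at -1.99 in control cKO macrophage-like cells, and Fto at -1.99 (control cKO), Rbm15 at -0.27 (IR WT) and Alkbh5 at -0.068 (IR cKO) in monocyte-like cells, where IR in tumor cKO gave Rbm15b 0.012 and Fto 0.84 on 27 and 25 UMIs or fewer. Values of Mettl3, Mettl14 and Fto in tumor monocyte-like cells rest on 6 to 25 UMIs, which limits what could be detected there.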

Other observations

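Rbm15 UMIs per UMI of its paralog Rbm15b were 1.32 (1.09 to 1.61) and 1.15 (0.942 to 1.42) in untreated blood (WT, cKO) and 1.04 (0.851 to 1.27) and 1.38 (1.10 to 1.72) in blood after IR. They were 1.40 (1.18 to 1.66) and 1.19 (1.02 to 1.38) in untreated tumors and 1.70 (1.40 to 2.06) and 1.45 (1.22 to 1.73) in tumors after IR. NK cell-like cells numbered 53 to 127 in the tumor groups. They held Zc3h13 at 98.6 to 142 CPM there, on 21 to 44 UMIs per group, above the other tumor classes with at least 50 cells in a group (macrophage-like 51.2 to 68.6 CPM, fibroblast-like 64.2 to 76.9 CPM, monocyte-like 63.1 to 76.1 CPM).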
